A study of Rattus norvegicus with 5 samples.

Results

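The 10 genes described here, *Cldn5*, *Ocln*, *Tjp1*, *Slc2a1*, *Mfsd2a*, *Slco1a4*, *Abcg2*, *Abcb1a*, *Flt1* and *Vwf*, were chosen by name as genes of the blood-brain barrier and its endothelium. Of these 10, 9 were found among the 32883 gene names of the files, and *Abcb1a*, which encodes the drug efflux pump P-glycoprotein, was not matched and is not analysed here. They were followed in snRNA-seq libraries of the ventral tegmental area (VTA) of 5 adult male Sprague-Dawley rats, 1 library per rat. The sample labels give the treatment of all 5 as saline and the study describes the rats as drug-naïve, so that there was 1 group and no comparison of treatments. Bilateral VTA punches of flash-frozen brain were combined per rat, which leaves vessels of the punch in the sample, and nuclei were run in the 10x Genomics 3′ assay (v3.1). The assay tags transcripts with unique molecular identifiers (UMIs) and droplets with barcodes, so that the counts are of molecules.

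The blood-brain barrier is formed by the endothelial cells of brain vessels, which are joined by tight junctions, carry out little vesicular transport and use transporters to admit nutrients and to return foreign compounds to the blood. Mural cells (pericytes and smooth muscle cells) lie on the same vessels and share their basement membrane. In the junction, claudin-5 (*Cldn5*, ENSRNOG00000045811) seals the gap between cells, occludin (*Ocln*, ENSRNOG00000018297) is a second membrane protein of the strands, and ZO-1 (*Tjp1*, ENSRNOG00000011077) anchors them to the cytoskeleton in many cell types. The carriers are the glucose transporter GLUT1 (*Slc2a1*, ENSRNOG00000007284), the lysolipid and omega-3 fatty acid transporter MFSD2A (*Mfsd2a*, ENSRNOG00000014008) and the organic anion transporter OATP1A4 (*Slco1a4*, ENSRNOG00000047493), and BCRP (*Abcg2*, ENSRNOG00000007041) is an efflux pump. VEGF receptor 1 (*Flt1*, ENSRNOG00000000940) binds VEGF at the endothelial surface, and von Willebrand factor (*Vwf*, ENSRNOG00000019689) is a clotting protein that endothelial cells store and secrete.

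Barcodes with at least 600 UMIs, over 200 and under 5000 genes and less than 5% mitochondrial UMIs numbered 35234, of which 33474 remained after removal of the highest doublet scores. The libraries of rats 1 to 5 held between 10193355 and 88576210 UMIs, and pairs of libraries shared 2 to 27 of the barcodes kept. At one fixed rank of barcodes sorted by depth, far down the list, rat 2 still held 558 UMIs per barcode against 22 to 260 in the other rats, so that the minimum of 600 UMIs lay close to droplets of free RNA in rat 2. Clusters with 16210 barcodes stayed unnamed, as they mixed markers of several types, scored low for all or, for 544 barcodes with neuronal markers, were shallow, 505 nuclei formed 1 vascular cluster, and the others were named neuron, oligodendrocyte, oligodendrocyte precursor cell (OPC), astrocyte or microglia. Each vascular nucleus was then called endothelial-like or mural-like when at least 80% of its endothelial, mural and fibroblast marker UMIs, over at least 2 markers, belonged to that type. This gave 239 endothelial nuclei (19, 144, 5, 21 and 50 in rats 1 to 5) and 85 mural nuclei (2, 40, 2, 13 and 28), while 159 vascular nuclei remained undecided and 22 were fibroblast-like. None of the barrier genes was a marker or took part in the clustering. These markers set the labels, so that their levels describe the classes and do not test them. In endothelial nuclei the summed level of the 17 endothelial markers was 63.0 to 107 UMIs per 10000 UMIs over rats, against 3.42 to 6.78 in mural and 0.340 to 0.717 in all other nuclei. The 12 mural markers summed to 76.6 to 134 in mural and 2.35 to 2.87 in endothelial nuclei. Markers that the split did not use were present too, with oligodendrocyte markers at 44.4 to 112 in endothelial, 51.2 to 113 in mural and 70.0 to 159 in other nuclei, and neuron markers at 10.7 to 23.6, 8.96 to 25.2 and 26.8 to 42.0, and their part in the results was not tested. All levels are UMIs per 10000 UMIs summed over the nuclei of 1 rat and class, and only classes with at least 10 nuclei in a rat entered the comparisons, which left rats 1, 2, 4 and 5 for endothelial and rats 2, 4 and 5 for mural nuclei. Transcripts were not divided by length, so that levels are compared between classes and not between genes, and a lower level cannot be told from fewer transcript-bearing nuclei within a class.

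*Cldn5* stood at 5.88, 7.06, 3.90 and 8.94 UMIs per 10000 in endothelial nuclei of rats 1, 2, 4 and 5. In all other nuclei of these rats it stood at 0.103, 0.145, 0.0208 and 0.0493, so that every endothelial value lay above every other value by a factor of 48.7 to 187 within rats. *Ocln* was at 4.07, 1.75, 2.44 and 2.13 in endothelial nuclei and 0.249, 0.0402, 0.0370 and 0.0426 in the others. Rat 1 was highest for *Ocln* in both classes, and the endothelial level was 16.3 to 65.8 times the other. *Tjp1* behaved otherwise, at 5.35, 3.51, 5.69 and 4.43 in endothelial nuclei and 1.88, 1.33, 1.92 and 1.75 in the others. For this junction scaffold the ratio was 2.53 to 2.96 within rats. About as many unnamed as named barcodes were among the other nuclei, and against named clusters and fibroblast-like nuclei alone the ratio was 94.9 to 220 for *Cldn5*, 41.6 to 68.3 for *Ocln* and 2.26 to 2.95 for *Tjp1*. These levels are given as a description and without a test, because the genes were chosen for their known endothelial expression.

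Of the carriers, *Slco1a4* had the smallest spread between rats, with 15.1, 15.0, 14.6 and 14.6 UMIs per 10000 in endothelial nuclei, or 14.8 ± 0.252 (SD, n = 4 rats). All other nuclei held 0.115, 0.121, 0.0602 and 0.0979, and the ratio of the classes within rats was 124 to 243. As *Slco1a4* belongs to a family of close paralogs, the authors' counting may not have assigned all of its reads to it. *Slc2a1* varied more between rats, at 7.81, 4.499, 9.59 and 5.50 in endothelial and 0.439, 0.391, 0.318 and 0.237 in other nuclei, a ratio of 11.5 to 30.2. *Mfsd2a* was at 1.82, 0.994, 1.14 and 1.48 in endothelial nuclei, from only 17, 38, 7 and 18 UMIs. Other nuclei held 0.287, 0.274, 0.449 and 0.385 of it, so that the endothelial level exceeded them by a factor of 2.53 to 6.34. The efflux pump gene *Abcg2* stood at 6.63, 4.71, 5.04 and 6.65 against 0.0562, 0.0491, 0.00787 and 0.0360 in the others, a ratio of 95.9 to 640, or 133 to 793 against named clusters and fibroblast-like nuclei alone. The ratios of 640 and 793, both of rat 4, rested on 17 and 13 UMIs outside the endothelial class.

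*Flt1* stood at 51.0 UMIs per 10000 in endothelial nuclei of rat 1 and at 22.4, 30.4 and 25.9 in rats 2, 4 and 5. Other nuclei held 0.157, 0.161, 0.0357 and 0.0652, a ratio of 140 to 853 within rats, or 210 to 1070 against named clusters and fibroblast-like nuclei alone. The ratio of 1070, of rat 1, rested on 21 UMIs in the named nuclei. *Vwf* was at 3.96, 2.80, 2.60 and 2.95 in endothelial nuclei and 0.0365, 0.0493, 0.0176 and 0.0260 in the others, a ratio of 56.7 to 148, or 69.6 to 349 against those named nuclei. The ratio of 349, also of rat 1, rested on 5 UMIs in the named nuclei. Rat 1 was the highest of the 4 rats for *Flt1*, *Ocln*, *Vwf* and *Mfsd2a*, and narrowly for *Slco1a4*, from 19 nuclei. The 5 endothelial nuclei of rat 3, with 7606 UMIs in all, were left out of these ranges and held 24 UMIs of *Flt1*, 7 each of *Abcg2* and *Mfsd2a*, 6 of *Ocln*, 5 of *Tjp1*, 4 of *Cldn5*, 3 of *Slco1a4*, 2 of *Slc2a1* and 1 of *Vwf*. Droplets under 100 UMIs, which hold free RNA, carried 0.217 to 0.384 UMIs of *Flt1* per 10000 over the 5 rats, 0.0684 to 0.350 of *Cldn5* and 0.0440 to 0.239 of *Slco1a4*. At the fixed rank of barcodes named above, rats 2, 4 and 5 held 558, 218 and 260 UMIs per barcode. Droplets under 100 UMIs may thus be only a shallow part of the free RNA in these rats, and the comparisons rest on it. In the named non-vascular clusters and fibroblast-like nuclei together, *Cldn5*, *Slc2a1*, *Slco1a4*, *Abcg2*, *Flt1* and *Vwf* were below the level of free RNA in 5 of 5 rats, *Ocln* in 4 and *Mfsd2a* in 3. Single classes stood above free RNA, with *Mfsd2a* in oligodendrocytes and *Ocln* in microglia above it in 5 of 5 rats *Slc2a1* in astrocytes and *Abcg2* in microglia in 4, *Slc2a1* in oligodendrocytes in 3, and *Vwf* in OPCs in 3 of 4 rats. *Tjp1*, at 0.749 to 1.39 in free RNA, was above it in 5 of 5 rats in oligodendrocytes and astrocytes, in 4 of 4 in OPCs, in 2 of 5 in microglia and in 1 of 5, rat 3, in neurons.

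**Figure D1:**
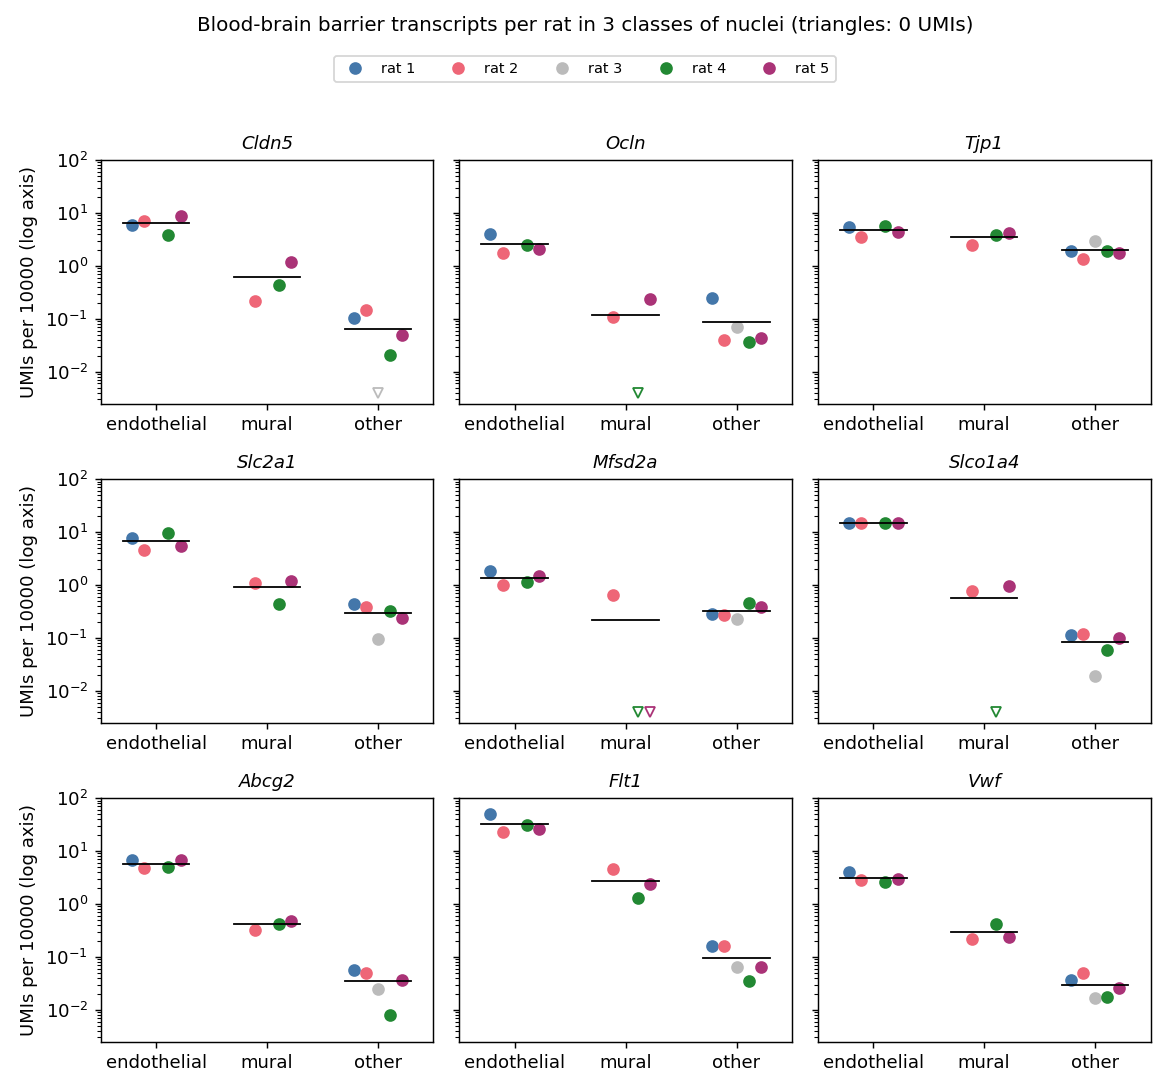
Level of each of the 9 barrier genes in UMIs per 10000 UMIs (log axis) in endothelial, mural and all other nuclei, with 1 point per rat, coloured by rat, and the mean over rats, zeros included, as a line. Open triangles stand for 0 UMIs. The endothelial points lay above all mural and other points for every gene except *Tjp1*, whose endothelial (3.51 to 5.69) and mural (2.52 to 4.11) ranges overlapped.

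The order of the classes differed between genes. *Cldn5* fell from endothelial nuclei (6.45 ± 2.11, SD, n = 4 rats) to mural nuclei (0.619 ± 0.523, n = 3), and astrocytes, OPCs, microglia, oligodendrocytes and neurons followed at means of 0.0211 to 0.0690 with overlapping ranges. *Slco1a4*, *Abcg2*, *Flt1* and *Vwf* shared the order of endothelial before mural nuclei, but the mural range overlapped with that of the next class for *Slco1a4* (0 to 0.968) and *Abcg2* (0.329 to 0.484). *Ocln* was second highest in microglia, the resident macrophages of the brain, at 0.501, 0.431, 0.606, 0.495 and 0.839 UMIs per 10000 in rats 1 to 5. Every microglial value of *Ocln* exceeded the highest value in mural nuclei (0.242), oligodendrocytes (0.104), neurons (0.0549), astrocytes (0.0691) and OPCs (0.0578). In free RNA *Ocln* was at 0.0499 to 0.202, below the microglial level of every rat. The 95 microglial *Ocln* UMIs came from 77 of 688 nuclei. The median microglial nucleus held 0 UMIs of the endothelial markers, and the part of RNA from other cells in this level was not tested.

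*Slc2a1* followed mural nuclei in astrocytes, which take up glucose from vessels at their endfeet, with 0.706, 0.847, 0.242, 0.629 and 0.679 UMIs per 10000 in rats 1 to 5. Oligodendrocytes held 0.562, 0.554, 0.249, 0.498 and 0.376, overlapping with astrocytes, and neurons held 0.0530 to 0.139. The ranges of neurons and of both glial classes did not overlap. *Mfsd2a* was second highest in oligodendrocytes, at 0.434 to 0.650 over 5 rats, and overlapped with astrocytes (0.211 to 0.785) and mural nuclei. All 4 endothelial values of *Mfsd2a* (0.994 to 1.82) lay above those of oligodendrocytes. For *Tjp1* the endothelial range (3.51 to 5.69) overlapped with that of mural nuclei (2.52 to 4.11). It overlapped with oligodendrocytes (2.34 to 6.72) and astrocytes (2.15 to 5.38) only through rat 3, which has no endothelial value here. Within rats 1, 2, 4 and 5 endothelial *Tjp1* was 1.5004 to 2.0471 times the level of oligodendrocytes and 1.58 to 2.33 times that of astrocytes, higher in 4 of 4 rats, and neurons had the lowest mean, with a range of 0.746 to 1.95. After both vascular classes, *Vwf* was highest in OPCs, at 0.0866, 0.163, 0.109 and 0.132 in rats 1, 2, 4 and 5, which did not overlap with astrocytes, oligodendrocytes or neurons but did with microglia. Free RNA held 0.0244 to 0.0993 of *Vwf*. *Abcg2* and *Flt1* came next in microglia, at 0 to 0.501 and 0.108 to 0.454, and overlapped there with the next class.

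**Figure D2:**
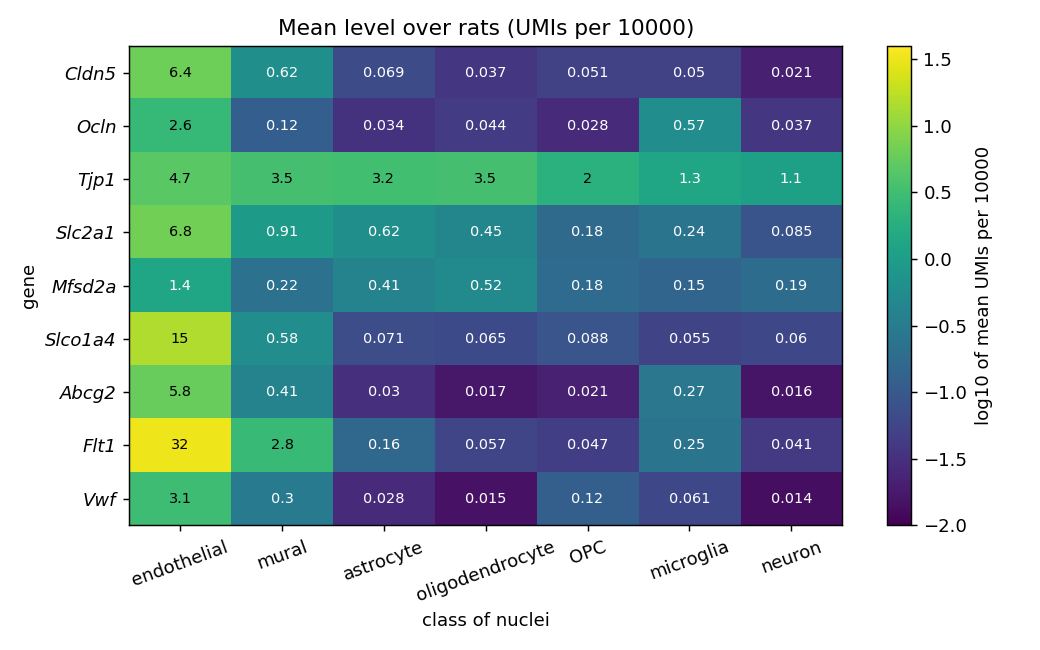
Mean level over rats of each barrier gene (rows) in 7 classes of nuclei (columns), in UMIs per 10000 UMIs, with the colour on a log10 scale and the value in each cell. Endothelial nuclei had the highest mean for all 9 genes, *Tjp1* was above 1 in every class, and *Ocln* had its second highest mean in microglia (0.574).

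The window of 250 bases before the annotated gene start is printed for *Flt1*, *Cldn5* and *Slco1a4*, which were at least 48.7 times higher in endothelial than in other nuclei, and for *Tjp1*, which was spread over classes. RefSeq sequences of build GRCr8 were available for 7 of the 9 measured genes. The windows are chr12:12333180-12333429 for *Flt1* (plus strand), chr11:95718599-95718848 for *Cldn5* (minus strand), chr4:176495847-176496096 for *Slco1a4* (minus strand) and chr1:128325361-128325610 for *Tjp1* (minus strand), each 5′ to 3′ along the gene. Capitals mark matches on either strand to 5 short motifs, and no matches overlapped in these windows. The core bound by ETS factors, which act in endothelial genes, was searched as GGAAG. The motif of SOX factors such as *Sox17* was searched as ACAAT. For the TCF/LEF factors of the Wnt pathway the letters searched were CTTTGA. The remaining motifs were general promoter elements, the box named CCAAT after its letters and the TATA box, for which the letters searched were TATAAA.
Flt1: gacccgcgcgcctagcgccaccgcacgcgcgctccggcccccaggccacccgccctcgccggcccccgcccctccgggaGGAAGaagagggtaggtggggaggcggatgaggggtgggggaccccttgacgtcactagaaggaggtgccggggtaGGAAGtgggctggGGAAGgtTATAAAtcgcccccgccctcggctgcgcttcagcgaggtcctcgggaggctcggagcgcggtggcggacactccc
Cldn5: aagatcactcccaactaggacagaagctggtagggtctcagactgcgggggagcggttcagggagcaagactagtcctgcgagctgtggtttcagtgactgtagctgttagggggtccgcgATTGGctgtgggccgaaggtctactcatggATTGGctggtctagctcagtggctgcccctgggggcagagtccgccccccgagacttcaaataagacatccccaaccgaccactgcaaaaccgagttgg
Slco1a4: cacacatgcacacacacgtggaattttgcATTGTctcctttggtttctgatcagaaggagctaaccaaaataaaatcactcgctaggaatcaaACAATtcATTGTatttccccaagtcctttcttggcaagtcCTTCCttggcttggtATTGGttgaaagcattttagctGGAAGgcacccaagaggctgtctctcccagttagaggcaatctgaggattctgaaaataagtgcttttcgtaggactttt
Tjp1: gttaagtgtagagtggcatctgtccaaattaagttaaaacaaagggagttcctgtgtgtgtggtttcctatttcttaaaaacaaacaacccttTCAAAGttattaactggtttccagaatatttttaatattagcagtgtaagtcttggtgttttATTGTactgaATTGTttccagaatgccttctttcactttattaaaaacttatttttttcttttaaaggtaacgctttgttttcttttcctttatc

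The *Flt1* window held 3 matches to the ETS core and 1 to the TATA box, the *Cldn5* window 2 to the CCAAT box, the *Slco1a4* window 3 to the SOX motif, 2 to the ETS core and 1 to the CCAAT box, and the *Tjp1* window 2 to the SOX and 1 to the TCF/LEF motif. Of all 33469 windows of this length, 63.3% held the ETS core, 30.02% the SOX motif, 13.9% the TCF/LEF motif, 34.0% the CCAAT box and 12.9% the TATA box at least once. How often windows held several matches to 1 motif was not counted. Base composition set the windows further apart, with a GC content of 73.2% for *Flt1*, 58.4% for *Cldn5*, 42.4% for *Slco1a4* and 30.4% for *Tjp1*. The windows of *Slc2a1*, *Abcg2* and *Ocln* had 68.4%, 67.2% and 66.4%, against a median of 51.2% and a 5th to 95th percentile range of 34% to 72.8% over all windows.

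Mural and other nuclei were compared for the barrier genes on the UMIs summed per rat and class. The comparison used edgeR's quasi-likelihood test, with the rat as a block and p-values adjusted over 7237 genes. Of the 9 genes, 5 were higher in mural than in other nuclei (*Flt1*, *Slco1a4*, *Abcg2*, *Cldn5* and *Slc2a1*), where 6.62% of all genes tested were higher and 9.78% lower. One filter on low counts served all comparisons, so that genes low outside the endothelium could enter this one through the endothelial sums. The count and the p-values of the single genes are thus a description and support nothing. *Flt1* was at 4.61, 1.28 and 2.42 UMIs per 10000 in mural nuclei of rats 2, 4 and 5, above the 0.161, 0.0357 and 0.0652 of other nuclei. Its log2 fold change was 4.97 ± 0.47 (SE, adjusted p = 4.29e-10). *Slco1a4* was at 0.768, 0 and 0.968 in mural nuclei of these rats, from 7, 0 and 4 UMIs, and its log2 fold change over other nuclei was 2.64 ± 0.62 (adjusted p = 0.00235). The mural counts of *Abcg2* were 3, 1 and 2 UMIs and those of *Cldn5* 2, 1 and 5 UMIs. Their log2 fold changes of 3.36 ± 0.95 (adjusted p = 0.0123) and 2.56 ± 0.83 (adjusted p = 0.0295) thus rested on 6 and 8 UMIs. *Slc2a1*, with 10, 1 and 5 UMIs, had a log2 fold change of 1.53 ± 0.50 (adjusted p = 0.0319).

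*Vwf* (log2 fold change 2.81 ± 1.02, SE, adjusted p = 0.0548), *Tjp1* (0.86 ± 0.32, adjusted p = 0.0618), *Ocln* (1.35 ± 1.34, adjusted p = 0.573) and *Mfsd2a* (0.040 ± 0.73, adjusted p = 0.982) did not pass the threshold in this comparison. Of the endothelial markers, 12 of 17 had a UMI in mural nuclei, some of them only 1, and *Robo4*, *Clec14a*, *Ecscr*, *Mmrn2* and *Nos3* were at 0. Of these, *Robo4* had 0 and *Ecscr* 5 UMIs in endothelial nuclei of the same rats, so that their 0 in mural nuclei carries no information. Of the 81 mural nuclei in rats 2, 4 and 5, 51 held no UMI of an endothelial marker. In those 51 nuclei there were 15 UMIs of *Flt1* in 6 nuclei, 8 of *Slc2a1*, 3 of *Abcg2*, 1 each of *Cldn5* and *Slco1a4*, and none of *Ocln* or *Vwf*. The other 30 nuclei, with a median of 2128 against 1354 UMIs, held 40 UMIs of *Flt1*, 10 of *Slco1a4*, 7 of *Cldn5*, 4 of *Vwf* and 2 of *Ocln*. *Slc2a1* and *Abcg2* stood at nearly the same level in both sets, with 8 and 3 UMIs in the 30 nuclei or 1.02 and 0.383 per 10000 against 1.03 and 0.386 in the 51, and *Mfsd2a* was at 0.256 against 0.515. The split of the vascular nuclei itself limits endothelial marker UMIs in mural nuclei, and the part of RNA from endothelial cells in these mural levels was not tested. Without rat 2, which held 40 of the mural nuclei, 2 of the 9 genes were called higher, as *Slco1a4* (adjusted p = 0.0767), *Abcg2* (0.0541) and *Slc2a1* (0.173) were lost. Without rat 5, 3 were, as *Cldn5* (adjusted p = 0.602) and *Slc2a1* (0.239) were lost, and without rat 4 *Cldn5* was at an adjusted p of 0.0561. With nuclei typed one by one, or split by the majority of their markers, 8 of the 9 were.

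Between the vascular classes, 7 of the 9 genes were higher in endothelial than in mural nuclei by the same test, where 7.99% of all genes tested differed, 4.73% higher and 3.26% lower. These genes were chosen for their known endothelial expression. Those low elsewhere, such as *Ocln* and *Vwf* with 2 and 4 mural UMIs, could pass the filter on low counts through the endothelial sums. This count and the p-values of the single genes are thus a description and support nothing. *Slco1a4* was higher by 4.54 ± 0.46 on the log2 scale (SE, adjusted p = 6.48e-09) and *Flt1* by 3.40 ± 0.43 (adjusted p = 5.43e-07). *Abcg2* was higher by 3.93 ± 0.58 (adjusted p = 6.27e-06) and *Cldn5* by 3.85 ± 0.58 (adjusted p = 9.07e-06). *Ocln*, *Vwf* and *Slc2a1* differed by 3.76 ± 0.80, 3.63 ± 0.61 and 2.64 ± 0.43 (SE), with adjusted p between 2.91e-05 and 0.00123. For *Tjp1* the difference was 0.49 ± 0.33 (adjusted p = 0.537), and for *Mfsd2a*, with 6 mural UMIs that all came from rat 2, it was 1.83 ± 0.66 (adjusted p = 0.0962). The calls for *Cldn5* and *Ocln* were lost with nuclei typed one by one (adjusted p = 0.192 and 0.129), and that for *Ocln* without rat 2 (adjusted p = 0.0648).

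Expressed as a share, the mural level pooled over rats 2, 4 and 5 was 4.74% of the endothelial level for *Slco1a4*, 6.72% for *Ocln*, 7.20% for *Cldn5*, 7.46% for *Abcg2* and 9.13% for *Vwf*. For *Cldn5* the share by rat was 3.11%, 10.9% and 13.5%, lowest in rat 2, which held the most mural nuclei. The 17 endothelial markers, whose UMIs in mural nuclei the split itself limits, summed to 7.68%, and by rat to 8.36%, 3.19% and 9.16%. *Flt1* stood at 14.7% (20.5%, 4.21% and 9.34% in rats 2, 4 and 5) and *Slc2a1* at 19.5% (24.4%, 4.45% and 22.0%). Among the single markers, *Adgrf5* (17.0%) and *Ptprb* (16.3%) reached similar shares. *Tjp1* was at 79.7%, with 72.0%, 67.6% and 92.9% by rat, and *Mfsd2a* at 34.6%, with 66.2%, 0% and 0% by rat. The undecided vascular nuclei, which entered no test, held 17.1, 18.4 and 9.32 UMIs of *Flt1* per 10000 in rats 2, 4 and 5 and 6.82, 4.26 and 3.97 of *Cldn5*, between the endothelial and the mural level except for *Cldn5* in rat 4.

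**Figure D3:**
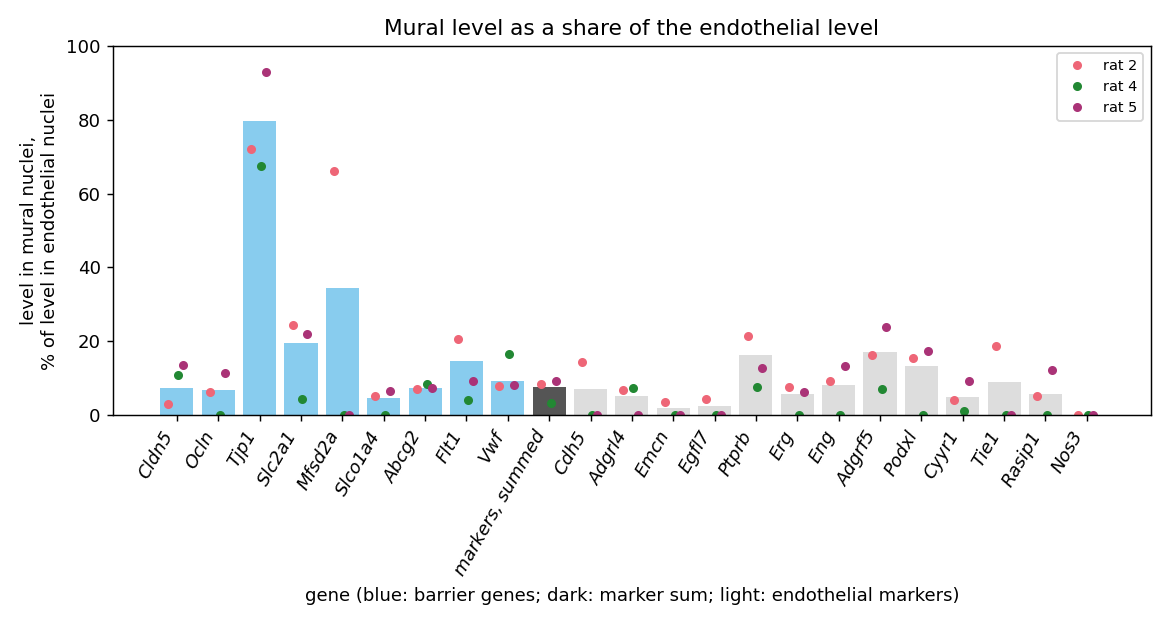
Level in mural nuclei as a percentage of the level in endothelial nuclei for the 9 barrier genes (blue), the sum of the endothelial markers (dark) and the single markers with at least 50 endothelial UMIs (light). Bars pool rats 2, 4 and 5 and points are single rats. *Tjp1* had the highest share (79.7%). The split of the vascular nuclei itself limits the marker sum (7.68%), so that it is no reference for the barrier genes.

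The share of endothelial nuclei with a UMI of each gene depends on depth, so that every nucleus was thinned to 600 UMIs. At this depth *Flt1* was detected in 66.1% of 239 endothelial nuclei (exact 95% binomial interval 59.7 to 72.1), *Slco1a4* in 52.3% (45.8 to 58.8) and *Cldn5* in 40.6% (34.3 to 47.1). *Abcg2* was detected in 28.5%, *Slc2a1* in 25.9%, *Tjp1* in 20.5%, *Vwf* in 14.2%, *Ocln* in 11.3% and *Mfsd2a* in 4.18%. The intervals cover counting error only, and the mean over rats was 39.6% ± 17.9 (SD, n = 4) for *Cldn5* and 52.0% ± 3.18 (n = 4) for *Slco1a4*. In neurons the thinned shares were 0.176% for *Flt1*, 0.461% for *Slco1a4*, 0.241% for *Cldn5*, 0.1097% for *Vwf* and 1.08% for *Mfsd2a*. For *Tjp1*, a gene of many cell types, the share in neurons was 5.25%. Without thinning, at a median of 1957 UMIs per endothelial nucleus and 6749 per neuron, *Flt1* was detected in 86.2% and *Mfsd2a* in 25.1% of endothelial nuclei.

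An endothelial nucleus thinned to 600 UMIs held 2.83 ± 0.274 (SD, n = 4 rats) of the 9 genes on average, with 3.11, 2.45, 2.86 and 2.90 in rats 1, 2, 4 and 5. At least 3 of the 9 genes were found in 54.4% of endothelial nuclei, 2.35% of mural nuclei and 0.0358% of nuclei in the other named clusters. The 34 endothelial nuclei with a *Vwf* UMI at this depth held *Abcg2* in 38.2% and *Cldn5* in 47.1%, against 26.8% and 39.5% of the 205 nuclei without one. *Slco1a4* was found in 52.9% and 52.2%. These shares pool rats and were not tested, as only 2 rats had at least 5 nuclei on both sides.

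**Figure D4:**
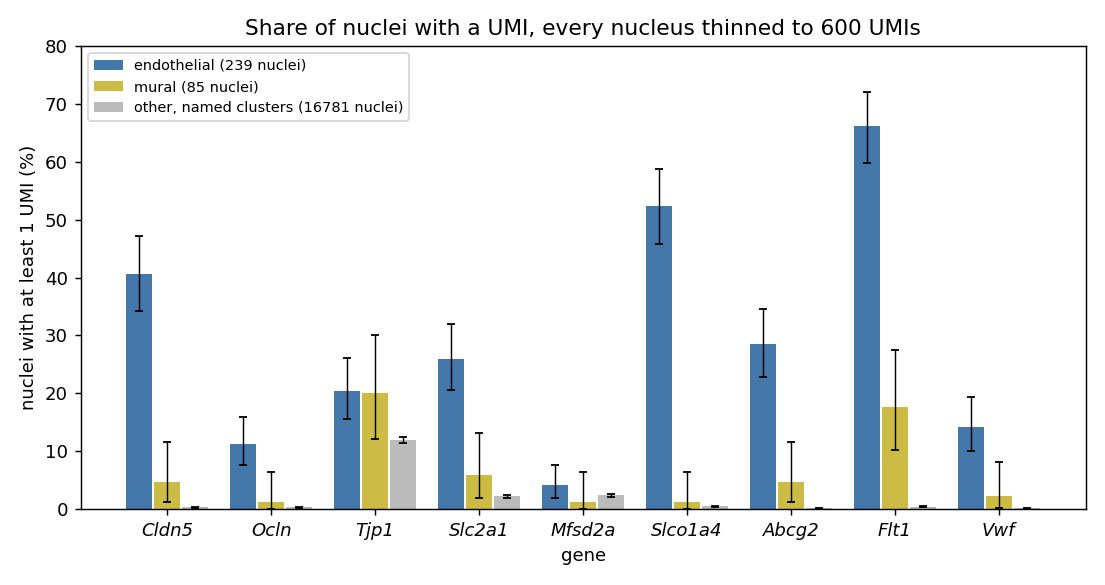
Share of nuclei with at least 1 UMI of each barrier gene after thinning every nucleus to 600 UMIs, in endothelial, mural and other named nuclei (bars), with exact 95% binomial intervals for counting error. The endothelial share was highest for *Flt1* (66.1%) and lowest for *Mfsd2a* (4.18%), and the endothelial and mural shares of *Tjp1* were 20.5% and 20%.

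Endothelial nuclei fell mostly into a few sub-clusters of the vascular cluster, of which the largest held 90 of them and another 47. In rats 2 and 5, where both had at least 10, *Flt1* was at 32.1 and 33.8 UMIs per 10000 in the larger and at 42.9 and 48.3 in the smaller. *Abcg2* stood at 6.96 and 8.61 against 12.4 and 13.1, and *Slco1a4* at 21.0 and 19.7 against 26.6 and 28.6. *Vwf* and *Tjp1* were nearly level, with 4.79 and 3.69 against 4.37 and 3.86 for *Vwf* and 4.79 and 5.84 against 5.09 and 5.79 for *Tjp1*. The summed arterial zone genes (such as *Efnb2* and *Hey1*) were at 2.01 and 1.85 against 3.64 and 3.09, and the venous ones (such as *Nr2f2*) at 1.62 and 0.615 against 0 and 0.386. The arterial sums rested on 26 and 6 UMIs against 10 and 8, and the venous sums on 21 and 2 against 0 and 1. Other values went in opposite directions in the rats, with the capillary zone genes at 14.2 and 17.5 against 21.8 and 11.6 and *Slc2a1* at 5.34 and 9.23 against 10.9 and 7.34. The median depth was 1772 UMIs and 2289 UMIs over all rats, and the differences between the sub-clusters were not tested. A further 34 nuclei, 29 of them of rat 2, with a median of 984.5 UMIs held *Flt1* at 18.1, *Abcg2* at 4.59 and *Slco1a4* at 12.1. Another 41, 27 of them of rat 2, held these genes at 10.3, 1.67 and 7.81. Both of these groups came from sub-clusters that scored highest for neuronal markers. Of the rest, 18 with *Flt1* at 17.8 and 4 with *Flt1* at 30.1 came from sub-clusters that scored highest for oligodendrocyte and OPC markers. The endothelial levels by rat given above include all of these nuclei.

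Genes of the same barrier functions were followed in lists drawn up with earlier results of these data known. Like the genes above, many were listed for their known endothelial expression. Those low in other nuclei could pass the filter on low counts through the vascular sums. The counts and medians of the lists, and the p-values of their single genes, are thus a description and support nothing. For endothelial against other nuclei, 12.1% of all genes tested were higher and 15.8% lower, with a median log2 fold change of -0.10. Of 16 solute carriers, 11 were tested, 10 were higher and 1 passed in neither direction, with a median log2 fold change of 3.28. The thyroid hormone transporter *Slco1c1* was at 20.3, 13.6, 13.0 and 14.1 UMIs per 10000 in endothelial nuclei of rats 1, 2, 4 and 5 and at 0.0375 to 0.162 in others (log2 fold change 7.29 ± 0.36, SE, adjusted p = 8.43e-18). The cationic amino acid transporter *Slc7a1* and the organic anion transporter *Slc22a8* rose by 5.07 ± 0.30 (adjusted p = 1.72e-15) and 7.11 ± 0.45 (adjusted p = 7.80e-15). *Slc22a8* was at 0.726 to 2.99 in mural, 1.31 to 2.76 in endothelial and 0.00509 to 0.0230 in other nuclei. Its mural and endothelial ranges thus overlapped. Of 7 ABC transporters tested, *Abcc4* (4.72 ± 0.28) and *Abcc6* (6.81 ± 0.49) were higher, with adjusted p of 8.82e-16 and 2.12e-13, and *Abca1* and *Abca2* were lower, with a median of -0.46 over the list. *Abca1*, a cholesterol exporter, fell by 0.97 ± 0.32 on the log2 scale (adjusted p = 0.0226).

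Of 14 tight and adherens junction genes, 10 were tested, 6 were higher and 2 (*Jam3* and *Magi1*) lower, with a median log2 fold change of 1.28. *Cgnl1*, which encodes paracingulin, rose by 5.35 ± 0.27 (SE, adjusted p = 1.31e-17), the endothelial adhesion gene *Esam* by 6.53 ± 0.41 (adjusted p = 5.97e-15) and *Lsr*, a protein of tricellular junctions, by 3.06 ± 0.40 (adjusted p = 1.94e-07). The ranges of *Esam* overlapped between mural (1.45 to 2.99) and endothelial nuclei (0.902 to 2.11). Of 12 genes of receptor and caveolar transport, 9 were tested and 6 were higher, with a median of 2.41. The transferrin receptor gene *Tfrc* was at 8.13, 7.53, 4.55 and 6.65 UMIs per 10000 in endothelial nuclei against 0.257 to 0.441 in others (4.22 ± 0.26, SE, adjusted p = 2.50e-15). The caveolar genes *Cav1* and *Cavin1* were at 0.732 to 1.30 and 0.642 to 0.975 in endothelial nuclei, and rose by 3.14 ± 0.38 (adjusted p = 3.61e-08) and 4.89 ± 0.52 (adjusted p = 2.26e-09). In mural nuclei *Cavin1* was at 0.242 to 1.71, which overlapped with its endothelial range.

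Of 11 genes of the VEGF and angiopoietin pathway, 8 were tested, 4 were higher and 2 lower, with a median of 1.22. The receptors *Tek* (TIE2) and *Kdr* (VEGF receptor 2) rose by 5.70 ± 0.28 (SE, adjusted p = 7.12e-18) and 4.83 ± 0.38 (adjusted p = 1.95e-12) and the ligand *Vegfc* by 3.63 ± 0.53 (adjusted p = 1.95e-06). The ranges of *Vegfc* overlapped between mural (0 to 1.71) and endothelial nuclei (0.325 to 1.28). The ligand *Vegfa* and the co-receptor *Nrp2* were lower than in other nuclei. Of 20 genes of the Wnt and beta-catenin pathway of brain vessels, which induces barrier properties in development, 12 were tested and 9 were higher, with a median of 2.69. The transcription factor *Lef1* was at 20.1, 9.23, 14.0 and 7.63 in endothelial nuclei and 0.0309 to 0.0615 in others (8.09 ± 0.36, SE, adjusted p = 1.14e-18). *Sox17* and the receptor *Fzd6* rose by 7.54 ± 0.49 (adjusted p = 1.13e-14) and 6.45 ± 0.55 (adjusted p = 1.37e-11). Against mural nuclei, *Lef1* and *Sox17* were the 2 of these 12 that were higher, where 4.73% of all genes were.

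Of 10 other haemostasis genes, 3 passed the filter on low counts. The plasminogen activator *Plat* was at 0.732 to 1.46 UMIs per 10000 in endothelial and 0.0134 to 0.0994 in other nuclei and was higher by 3.92 ± 0.49 (SE, adjusted p = 7.80e-08), clotting factor *F8* by 2.16 ± 0.42 (adjusted p = 0.000119) and the inhibitor *Tfpi* by 2.001 ± 0.28 (adjusted p = 1.003e-06). The mural ranges of *F8* (0 to 1.21) and *Tfpi* (0.548 to 1.21) overlapped with the endothelial ones (0.492 to 1.30 and 0.813 to 1.82). Of 8 arterial zone genes, 2 passed the filter, *Sema3g* at 0.246 to 0.975 in endothelial and 0.00531 to 0.0141 in other nuclei and *Efnb2* at 0.680 to 1.46 and 0.157 to 0.222. Of 4 capillary zone genes, *Car4* was not matched by name. The 3 others passed the filter, with log2 fold changes of 7.09 ± 0.38 (SE) for *Cxcl12*, 2.82 ± 0.28 for *Spock2* and 2.75 ± 0.37 for *Rgcc* over other nuclei and adjusted p between 8.09e-17 and 4.67e-07. The ranges of *Rgcc* overlapped between mural (0 to 0.877) and endothelial nuclei (0.785 to 2.76). The venous gene *Nr2f2*, the single one tested of its list, was lower in endothelial than in mural nuclei, with a log2 fold change of -3.24.

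Over 32 sums of rat and named class, the genes most similar to each barrier gene were found by Pearson's r of log2(UMIs per 10000 + 0.1), as a description of sums that share rats and depth. The endothelial class was set by its markers, *Cyyr1* among them, so that a high r between endothelial genes is built in. *Flt1* was closest to *Cxcl12* (0.97), *Cldn5* to *Cyyr1* (0.96), *Vwf* to *Nostrin* (0.96), *Slco1a4* and *Abcg2* to *Acvrl1* (0.97 and 0.94), *Ocln* to *Rhobtb1* (0.94) and *Slc2a1* to *Wfdc1* (0.92). The second genes were *Cyyr1* for *Flt1* and *Vwf*, *Nostrin* for *Cldn5*, *Id1* for *Slco1a4*, *Srgn* for *Abcg2*, *Lnx2* for *Ocln* and *Slco1c1* for *Slc2a1*. *Tjp1* (*Fermt2* at 0.89, *Klf9* at 0.83) and *Mfsd2a* (*Lipe* and *Gask1a*, both at 0.75) had no gene as close.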

How the data were processed

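Nuclei of VTA punches of 5 rats were measured by snRNA-seq, and the authors deposited raw UMI counts per gene and barcode, empty droplets included. Cell Ranger is named per the processing notes (8.0.1) and per the file headers (4), and the genome build was not given in the sources used here. SoupX, SCTransform, integration and scDblFinder, given in the methods, were not applied to these counts or repeated here. Genes were used by the names in the files, of which 10 barrier genes were sought. The genes and lists were chosen with earlier results of these data known.

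Doublets were scored with Scrublet in scanpy 1.11.5. As its own cut marked 3 of 35234 barcodes, the highest 5% of scores per library were removed instead. Leiden clustering (2000 variable genes, 30 components, 20 neighbours, resolution 1) left out the barrier and list genes. The naming rule, the 80% split and the 10 nuclei required per sum were set after clusters and levels had been seen. Within 10 percentage points of the 80% split lay 36 endothelial nuclei inside and 14 outside, and 25 mural nuclei inside and 8 outside. Summed counts were tested with edgeR 4.0.16 (quasi-likelihood, TMM, filterByExpr, adjusted p under 0.05) in R 4.3.3, with the rat as a block, since classes of 1 rat come from the same animal. Fibroblast-like nuclei and unnamed clusters counted among other nuclei. On simulated counts of the mural comparison over 6295 genes, 7.45% of genes changed 2-fold and 65.9% of those changed 4-fold were recovered, and 0.0327% of unchanged genes were called. Apart from these changes, the simulated counts had the same mean in all classes, a fixed spread and no differences between rats but depth. The shares thus do not carry over to the mural calls. Library totals limit precision. With the rat as a block, p-values rest on how differences between classes varied over rats, with a single spread estimate for all classes. Mural levels from few UMIs had no spread estimate of their own. The genes named are the 10 sought, up to 3 per list with the largest change past the threshold and in 1 direction in every rat, and the 2 most similar to each barrier gene. Markers, list members that fell or set a count, and *Nr2f2*, *Hey1*, *Slc7a5*, *Apcdd1* and *Lrp5* were named outside this rule after their values were seen. Alternatives were DESeq2 1.42.0, its size factors, no filter, no block, other UMI minimums, doublets kept, the genes kept in clustering, other ways to type nuclei, named clusters alone as other nuclei, free RNA subtracted at an assumed 10%, and each rat left out.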

Additional observations from a re-analysis of the deposited data

Results flagged for a closer look

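Of 72 groups of 4 or 5 rats examined for a rat far from the others, 6 held one, where chance alone marks about 1 in 20 groups. *Ocln* in all other nuclei stood at 0.249 UMIs per 10000 in rat 1, from 177 UMIs, against 0.0370 to 0.0702 in the other rats, and 134 of these UMIs lay in unnamed clusters. *Tjp1* was high in rat 3 in 3 classes, at 1.95 in neurons (0.746 to 1.08 in the others), 6.72 in oligodendrocytes (2.34 to 2.85) and 3.03 in microglia (0.719 to 1.07, with 20 UMIs in rat 3). The nuclei of rat 3 were shallower, at median UMIs of 1386 in neurons (7123.5 to 9654 in the others) and 791.5 in oligodendrocytes (2565 to 5875.5). They also clustered apart, with 835 of the 858 nuclei of 1 oligodendrocyte cluster from rat 3. The part of these differences in the *Tjp1* levels was not tested. *Slco1a4* was high in rat 2 in astrocytes, at 0.181 against 0.0202 to 0.0604, and in microglia, at 0.216 from 20 UMIs against 0 to 0.0399.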

How the results depend on the processing

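Of the fold changes of the barrier genes recomputed under the alternatives, 273 kept their direction and side of the threshold, 27 passed it newly, 16 no longer passed and 8 changed sign, and the cause was not tested. The genes lower in mural than in other nuclei (708) numbered 381 with DESeq2, 469 with free RNA subtracted and 414 to 591 with 1 rat left out, and those lower in endothelial than in other nuclei (1147) 713 with DESeq2 and 610 to 935 with 1 rat left out. Without the block for rat, these counts were 456 and 623, and *Cldn5* (adjusted p = 0.124) and *Slc2a1* (0.0780) in mural nuclei and *Cldn5* between the vascular classes (0.0500411) lost their calls by edgeR, while *Vwf* in mural nuclei passed (0.0381). Barrier genes higher in mural nuclei (5) numbered 8 with nuclei typed one by one, 8 with nuclei split by the majority of their markers, an alternative chosen after seeing the data, and 2 to 7 with 1 rat left out. The share of all genes called higher in each of these settings is not given here, so that these counts of barrier genes are a description. Genes higher in endothelial than in mural nuclei (342) fell to 194 with nuclei typed one by one and 183 by majority, and the genes lower (236) to 141 one by one. Barrier genes detected per endothelial nucleus (2.83) were 5.53 without thinning and 3.80 at 1000 UMIs. *Mfsd2a* in mural nuclei, with a log2 fold change of 0.040, changed sign to -0.085 with DESeq2, -0.23 without a filter, -0.080 without the block, -0.066 with doublets kept, -0.030 one by one, -0.0054 against named clusters and -0.42 with sub-clusters named whole (chosen after seeing the data), and ranged from -10.73 without rat 2, where all mural counts were 0, to 0.57. Mural *Cldn5*, *Abcg2*, *Ocln*, *Vwf* and *Mfsd2a* rested on at most 8 UMIs each.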

Other observations

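Pathway genes were also compared between mural and other nuclei, where 6.62% of all genes tested were higher and 9.78% lower, with a median log2 fold change of -0.17. Of 12 tested genes of the Wnt and beta-catenin pathway, 7 were higher in mural nuclei, with a median of 2.75, including *Lef1* (4.502 ± 0.62, SE, adjusted p = 1.36e-06, edgeR), the Wnt inhibitor *Apcdd1* (4.02 ± 0.70, adjusted p = 6.04e-05) and the co-receptor *Lrp5* (2.71 ± 0.78, adjusted p = 0.0131). Of 11 solute carriers, 4 were higher, led by *Slc22a8* (6.58 ± 0.74, adjusted p = 2.26e-08), with the amino acid transporter *Slc7a5* at 2.59 ± 0.58 (adjusted p = 0.00147). Of the other lists, 1 gene was higher and 1 lower of 9 genes of receptor and caveolar transport, 1 and 1 of 8 of the VEGF and angiopoietin pathway, 2 and 2 of 10 junction genes and 1 and 2 of 7 ABC transporters. These lists were drawn up with earlier results known. Genes low outside the endothelium could pass the filter on low counts through the endothelial sums. The counts and p-values of these lists are thus a description and support nothing. Mural levels were low for *Lef1* (0.484 to 1.43 UMIs per 10000) and *Lrp5* (0.427 to 0.968). *Nr2f2*, a transcription factor of veins, was at 2.14 to 3.15 UMIs per 10000 in mural nuclei and 0.163 to 0.366 in endothelial nuclei. The part of RNA from endothelial cells in these mural levels was not tested.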
